A study of Mus musculus with 2 samples.

Results

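PPARg-low Klrg1-positive Tregs outside the Il10 gate were 647 cells of the PPARg-low library. That library held 1619 cells after the mitochondrial filter, and both libraries together held 4252 such cells from 4894 barcodes. A cell was counted among them when it met 4 conditions on its UMIs (unique molecular identifiers, each standing for a captured transcript): mitochondrial UMIs of 10% or less, 1 or more UMIs of Klrg1, 0 or 1 UMIs summed over Il10, Lag3, Ccr8 and Il1r2 (the Il10 gate), and 0 or 1 summed over Ccr2, Ccr3, Itgae and Gzmb (the Ccr2 gate). The cells were thus chosen by the UMIs of these genes, whose values are given as a description only. The main comparison set the Klrg1-positive cells against 615 cells of the same library with 0 Klrg1 UMIs under the same other conditions, here called Klrg1-zero cells.

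All cells were splenic CD4 Tregs of male B6 Pparg-Tdt.Foxp3-Gfp mice, 8 weeks of age, a strain that carries reporters for Pparg and for Foxp3. The PPARg-low group was the Tregs labelled low in PPARg and the PPARg-negative group those labelled negative for it, and each group was 1 library from a pool of 2 or 3 mice counted with droplet 3′ sequencing. The label of the PPARg-low group says low where the names of its deposited data say pos, and the labels give neither the sort gates nor which mouse a cell came from. No difference between groups or sets of cells therefore has a replicate check, no test was possible, and every 95% interval covers counting error only.

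Regulatory T cells, or Tregs, are a Foxp3-dependent branch of the CD4 lineage that holds back immune responses. KLRG1 is an inhibitory lectin-like receptor that binds cadherins on other cells and recruits phosphatases such as SHIP-1 and SHP-2 through its cytoplasmic tail. On Tregs it marks activated, differentiated effector cells, many of them found outside lymphoid organs, and PPARg is a nuclear receptor of lipid metabolism known for the Tregs of visceral fat.

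Klrg1 (chromosome 6, 122270596 to 122282882, minus strand, mm10, a protein-coding gene) had 1 or more UMIs in 899 kept PPARg-low cells, which was 55.5% of them. The Il10 gate removed 147 of these and the Ccr2 gate a further 105. The remaining 647 cells made up 40.0% of the kept PPARg-low cells (exact binomial interval 37.6 to 42.4%) and 51.3% of the 1262 PPARg-low cells that met both gate limits. In the PPARg-negative library the same rule found 88 of 2633 kept cells, a share of 3.34% (2.69 to 4.10%).

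The 647 cells were not alike in Klrg1. A single Klrg1 UMI was found in 309 of them (47.8%), 2 UMIs in 127 (19.6%) and 3 or more in 211 (32.6%), and the highest count was 15, in a cell of 14376 UMIs. Cells with more Klrg1 UMIs were also deeper, with a median of 1304 UMIs at a single Klrg1 UMI, 1400 at 2 and 1896 at 3 or more. At these depths a cell with 0 Klrg1 UMIs is not shown to lack Klrg1 RNA. Both gates also let in single UMIs of their own genes: Lag3 was counted in 71 of the 647 cells, Ccr8 in 49, Il1r2 in 22 and Il10 in 18.

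Some genes, but not all, ran in order of the Il10 gate sum across the limit. The 487 cells with a gate sum of 0 held Tnfrsf9 at 1259 CPM (UMIs per 1000000 UMIs of the set), the 160 cells with a sum of 1 at 1680 CPM, the 47 Klrg1-positive cells with a sum of 2 at 2074 CPM, and the 80 with 3 or more at 3042 CPM. Penk ran in the same order, with 641, 817, 889 and 1335 CPM. Klrg1 itself was at 1339 and 1356 CPM in the sets with sums of 0 and 1, which are outside the gate, and at 1586 and 1641 CPM in the sets with 2 and with 3 or more, which are inside it. Id3 did not run in order, with 106, 43.0, 66.9 and 65.6 CPM, and Ccr7 was at 7.34 CPM at a sum of 0 and had no UMI in the others. Klrg1-zero cells with a gate sum of 1 held Tnfrsf9 at 1259 CPM, as the Klrg1-positive cells with a sum of 0 did. The 47 cells were limited to 0 or 1 UMIs of the Ccr2 gate. The sets of 47 and 80 cells are thus not all of the 147 Klrg1-positive cells of the Il10 gate. Depth was not matched here, with medians of 1540, 1442, 1792 and 1775 UMIs in the 4 Klrg1-positive sets, in order of gate sum.

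The label was checked against markers. All 8 genes chosen to check the Treg label (Cd3e, Cd3d, Cd4, Foxp3, Il2ra, Ikzf2, Ctla4 and Tnfrsf18) had UMIs. They summed to 8329 CPM in the Klrg1-positive cells and 7028 CPM in the Klrg1-zero cells. Cd3e, Cd3d and Cd4 also belong to the T cell receptor signalling list used below, and Tnfrsf18 and Ctla4 to the effector list. The sum is therefore not a check of Treg identity alone. Tnfrsf18 was at 1726 and 1141 CPM, Ctla4 at 606 and 374 CPM, and Cd4 at 251 and 252 CPM. Foxp3 had 42 UMIs in 41 Klrg1-positive cells and 32 in 31 Klrg1-zero cells. The natural killer genes Ncr1, Klra8, Klra4, Klre1 and Eomes and the type 2 innate lymphoid genes Il13, Il5 and Arg1 were at 0 UMIs in both sets, and Cd8a had 1 UMI in the Klrg1-positive cells. The other genes of these lists were not at 0: Cd8b1 had 29 UMIs in Klrg1-positive and 26 in Klrg1-zero cells, Hpgds had 19 and 16, Il17rb had 6 and 1, Tyrobp had 2 and 6, and Klrb1c had 1 and 2. The 7 B cell markers summed to 28 UMIs in the Klrg1-positive cells and 36 in the Klrg1-zero cells, with Pax5 at 0 in both. The natural killer list was thus near 0, while Cd8b1, Hpgds and B cell markers were counted in both kinds of cells, and their part in the results was not tested.

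The myeloid and dendritic list stood out by level, with UMIs for 6 of 8 genes and 930 UMIs (830 CPM) in the Klrg1-positive cells, against 4 of 8 genes and 563 UMIs (549 CPM) in the Klrg1-zero cells. Cd74, the invariant chain of MHC class II, and Cst3, a secreted protease inhibitor, carried this sum: at matched depth Cd74 had 492 UMIs in Klrg1-positive cells and 312 in Klrg1-zero cells, and Cst3 had 280 and 186 in the same order. The other genes of the list were low. Lyz2 had 3 UMIs and Csf1r 1 in the Klrg1-positive cells and both had 0 in the Klrg1-zero cells. Siglech and Flt3 had 0 in both. Fcer1g, with 4 UMIs in Klrg1-positive and 14 in Klrg1-zero cells, and Tyrobp, with 2 and 6, ran against the list sum. Cd74 was spread over 42.2% of the matched Klrg1-positive cells and 33.2% of the matched Klrg1-zero cells. The part of free RNA in these values was not tested. For doublets, the matched comparison was run again without the cells marked by the doublet caller Scrublet. The ratios of all 104 named genes with enough UMIs, Cd74 and Cst3 among them, stayed within their main intervals. The part of doublets that Scrublet did not mark was not tested.

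Depth was made equal before genes were compared. In each bin of UMIs per cell, not counting Klrg1, the same number of cells was drawn from both kinds, which gave 557 Klrg1-positive cells with 935054 UMIs and 557 Klrg1-zero cells with 935672 UMIs. Their median depths were 1541 and 1517 UMIs. Other properties differed between the matched sets. Ribosomal protein genes took a median of 14.7% of the UMIs of a Klrg1-positive cell and 19.9% of those of a Klrg1-zero cell. Before matching these medians were 15.2% and 18.3%, so the draw widened this gap. Matched medians were 6.06% and 5.37% for Malat1 UMIs, 4.55% and 4.01% for mitochondrial UMIs, and 843 and 815 for genes per cell. Cells with under 20% ribosomal UMIs, here called ribosome-poor, made up 56.9% of the matched Klrg1-positive cells and 50.4% of the matched Klrg1-zero cells, so the leading results are also given within ribosome-poor and ribosome-rich cells. The libraries shared 5 barcode sequences, 3 of them among the 647 cells.

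**Figure D1:**
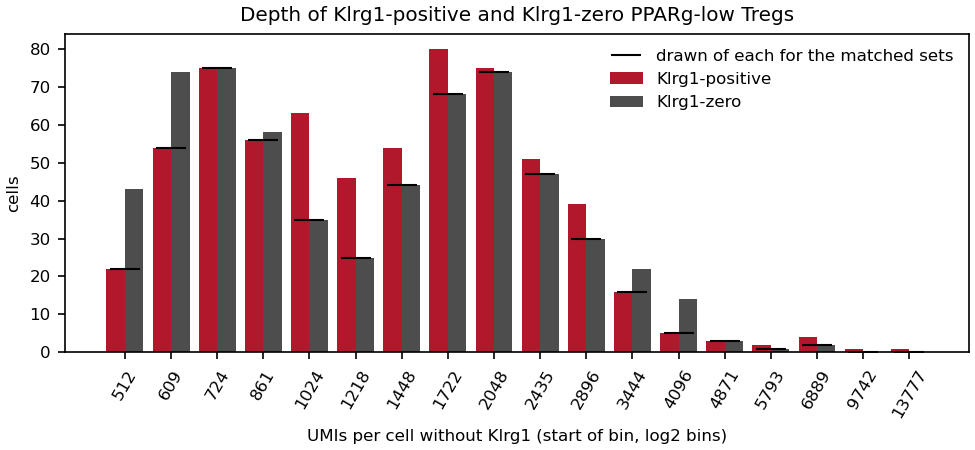
Number of cells (y axis) by UMIs per cell without Klrg1 (x axis, start of each log2 bin) for Klrg1-positive and Klrg1-zero PPARg-low Tregs, with the number drawn of each as a black line. The bins that start at 9742 and 13777 UMIs hold 1 Klrg1-positive cell each and no Klrg1-zero cell, and the 557 drawn cells of each kind have medians of 1541 and 1517 UMIs.

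At matched depth the Klrg1-positive cells carried more RNA of the enkephalin precursor Penk, of the TNF family receptors Tnfrsf9 (4-1BB), Tnfrsf4 (OX40) and Tnfrsf18 (GITR), of the checkpoint receptors Pdcd1 and Ctla4 and of the lysosomal proteases Lgmn and Ctsh. They carried less of the lymph node homing receptor Ccr7, of the transcription factors Id3, Tcf7 and Klf2 and of the T cell membrane protein Ms4a4b. Of 6238 genes with 30 or more UMIs over both sets, leaving out the genes of the rule, 197 (3.16%) were higher and 103 (1.65%) lower by size, that is 1.5-fold or more with the 95% interval of the ratio on the same side of 1. Both directions together made up 4.81%, and the median log2 ratio of all measured genes was 0.03. Most measured genes were thus not past this rule, and those that were split between both directions.

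Among proteins that act on other cells or on proteins, Penk (chromosome 4, 4133531 to 4138819, minus strand) had 653 UMIs in Klrg1-positive cells and 254 in Klrg1-zero cells, a ratio of 2.57 (2.22 to 2.99). Its UMIs were found in 134 Klrg1-positive cells and 64 Klrg1-zero cells. The 5 richest cells held 19.0% of the Penk UMIs of the Klrg1-positive set and 43.3% of those of the Klrg1-zero set. This share also falls as more cells hold a UMI. The highest count in a cell was 30 in the Klrg1-positive and 51 in the Klrg1-zero set, so the sums depend in part on which rich cells were drawn. Fgl2, a secreted fibrinogen-like suppressor of T cells, had 136 UMIs in Klrg1-positive cells and 62 in Klrg1-zero cells, a ratio of 2.19 (1.61 to 3.01). Fgl2, Penk and Ctla4 were the 3 members higher by size among 9 measured of the 13 suppressive mediators, none was lower, and the list median was 0.36 on the log2 scale. Tgfb1, which encodes the suppressive cytokine TGF-beta 1, had 334 and 261 UMIs and stayed under 1.5-fold.

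Lysosomal proteases came next. Lgmn, the asparaginyl endopeptidase legumain, had 95 UMIs in Klrg1-positive cells and 34 in Klrg1-zero cells (ratio 2.80, 1.87 to 4.27). Ctsh, the cysteine protease cathepsin H, had 53 and 16 UMIs in the same order (ratio 3.31, 1.87 to 6.21). Asb2, a substrate adaptor of a ubiquitin ligase, had 96 and 33 UMIs (ratio 2.91, 1.94 to 4.46). All of them were carried by a small part of the cells: at an equal depth of 750 UMIs per cell, reached by thinning, 8.63% of the Klrg1-positive cells held a Lgmn UMI and 6.29% an Asb2 UMI, against 2.67% and 2.88% of the Klrg1-zero cells.

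Among surface receptors, Tnfrsf9 (chromosome 4, 150914562 to 150946102, plus strand) had 1310 UMIs in Klrg1-positive cells and 670 in Klrg1-zero cells (ratio 1.96, 1.78 to 2.15). Tnfrsf4 had 2737 and 1686 UMIs (ratio 1.62, 1.53 to 1.73). Tnfrsf18 had 1647 and 1066 UMIs (ratio 1.55, 1.43 to 1.67). These costimulatory receptors were the 3 members higher by size among 10 measured of the 14 TNF receptor genes, and no member was lower.

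Inhibitory receptors did not move one way. Pdcd1, which encodes PD-1, had 513 UMIs in Klrg1-positive cells and 308 in Klrg1-zero cells (ratio 1.67, 1.44 to 1.93), and Ctla4 had 578 and 347 (ratio 1.67, 1.46 to 1.91). Lilrb4a, an inhibitory immunoglobulin-like receptor, had 35 and 6 UMIs (ratio 5.84, 2.43 to 17.0), but its exons overlap those of its close relative Lilr4b, so its counts are uncertain. Cd200r1 was also higher, with 162 and 105 UMIs. Cd96, with 67 UMIs in Klrg1-positive cells and 113 in Klrg1-zero cells, and Pecam1, with 31 and 60, were lower, so that 4 members were higher and 2 lower among 9 measured of 15. Klrg1 thus stood with some inhibitory receptors and not with others in these cells.

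The list of KLRG1 ligands and phosphatases was sparse. Inpp5d, which encodes SHIP-1, had 96 UMIs in Klrg1-positive cells and 50 in Klrg1-zero cells (ratio 1.92, 1.35 to 2.76). Ptpn11 (SHP-2) had 29 and 19 UMIs with an interval that holds 1. Ptpn6 encodes SHP-1, which is not among the phosphatases named above as recruited by KLRG1. It had 86 and 129 UMIs, with a ratio of 0.667 (0.502 to 0.883) that just missed the threshold. The other 3 of the 6 genes in this list, the cadherin genes Cdh1, Cdh2 and Cdh4, had 0 UMIs in both sets.

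Receptors for soluble signals and for adhesion added a few genes. Cxcr4, the receptor of CXCL12, had 53 UMIs in Klrg1-positive cells and 19 in Klrg1-zero cells (ratio 2.79, 1.63 to 4.99), and Ltb4r1, a receptor of leukotriene B4, had 39 and 12 (ratio 3.25, 1.67 to 6.82). Epcam, an epithelial cell adhesion molecule, had 213 and 125 UMIs (ratio 1.71, 1.36 to 2.14), and a UMI of it was found in 174 and 93 of the 557 cells of each kind. Of the interleukin receptors, 1 of 14 measured was higher by size, Il10ra with 96 and 61 UMIs, and none was lower. Homing receptors split, with Cxcr4 and Gpr55 higher and Ccr6 and Ccr7 lower among 10 measured of 17.

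Genes of transcription factors and their inhibitors were found on both sides. Id2, an inhibitor of E proteins linked to effector cells, had 275 UMIs in Klrg1-positive cells and 156 in Klrg1-zero cells (ratio 1.76, 1.44 to 2.16), and Gata3, a transcription factor of tissue Tregs, had 540 and 333 (ratio 1.62, 1.41 to 1.87). Id3 (chromosome 4, 136143497 to 136145755, plus strand), a related inhibitor linked to resting and follicular Tregs, had 79 and 257 UMIs and was 3.25-fold lower (2.52 to 4.24). Tcf7, which encodes TCF-1, had 17 and 64 UMIs and was 3.76-fold lower (2.18 to 6.85). Klf2, which maintains quiescence and egress, had 219 and 437 UMIs and was 1.99-fold lower (1.69 to 2.36). The Id genes thus ran in opposite directions in the same sets. Of 17 measured of the 20 effector transcription factors, Id2 and Gata3 were higher by size and none was lower, with a list median of 0.40.

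Pparg itself was counted rarely, with 20 UMIs in Klrg1-positive cells and 6 in Klrg1-zero cells (ratio 3.34, 1.29 to 10.1), although both kinds came from the PPARg-low sort. At 750 UMIs per cell, a Pparg UMI was found in 9 of 556 Klrg1-positive cells and 1 of 486 Klrg1-zero cells. Foxp3 had 34 and 30 UMIs, with an interval of the ratio from 0.674 to 1.92. Dgat2, an enzyme of triglyceride synthesis, was the 1 member higher by size among 8 measured of the 20 PPARg and lipid genes, with 42 and 17 UMIs. Pparg was under 30 UMIs over both sets and so was not among the measured genes.

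**Figure D2:**
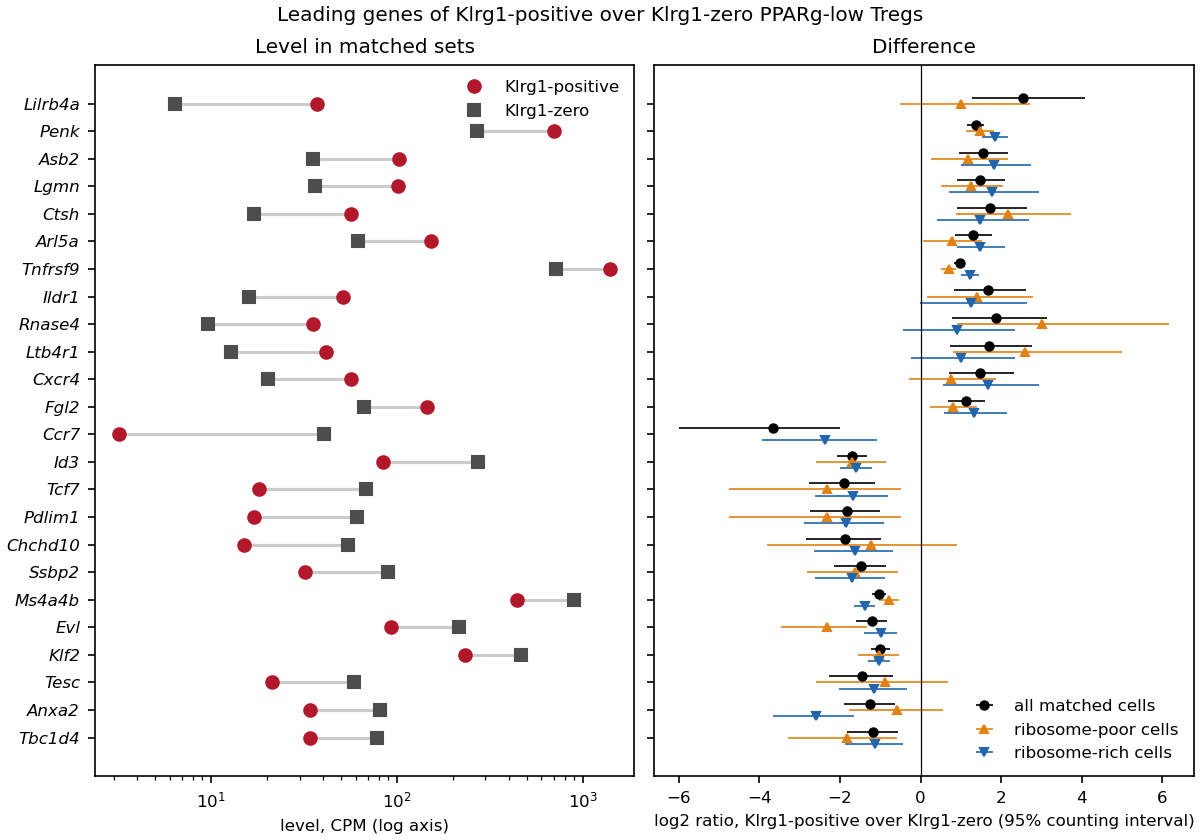
Left, level in CPM on a log axis of the 12 highest and 12 lowest genes in matched Klrg1-positive and Klrg1-zero PPARg-low Tregs; right, log2 ratio with 95% counting interval in all matched, ribosome-poor and ribosome-rich cells. The 12 upper genes lie to the right of 0 and the 12 lower genes to the left in every set drawn. They were chosen in all matched cells, and both classes are parts of the same cells, so the sets are not independent. A set in which a gene has 0 UMIs on a side is not drawn.

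The gene lists describe the direction over more genes. They were chosen with earlier results of these data known, and some genes belong to more than 1 list. The list counts are therefore not independent of each other or of the leading genes. Penk, Ctsh and Asb2 of the nonlymphoid-tissue list and Tnfrsf9 of the effector list were among the 12 highest genes. Of the 18 effector Treg genes, all measured, 8 were higher by size and none lower, against 3.16% and 1.65% of all genes, with a list median of 0.54 on the log2 scale beside 0.03 for all genes. Icos, Tnfrsf9, Tnfrsf4, Tnfrsf18, Ctla4, Pdcd1, Id2 and Cd44 were these 8. Of 17 measured of the 19 genes of nonlymphoid-tissue Tregs, 6 were higher (Gata3, Dgat2, Penk, Ctsh, Asb2 and Samsn1) and none lower, with a median of 0.61. Of 11 measured of the 18 resting Treg genes, none was higher and 4 were lower (Ccr7, Tcf7, Klf2 and Bcl2), with a median of -0.58. Bcl2 only just passed, with 107 and 161 UMIs found in 95 Klrg1-positive and 103 Klrg1-zero cells. Il7r of this list ran the other way, with 474 and 330 UMIs and an interval of 1.25 to 1.66, but stayed under the threshold.

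Several lists stayed near the value of all genes. The 17 T cell receptor signalling genes had a median of 0.07 and no member past the threshold. The 13 measured interferon response genes had a median of 0.00 and also no member past it. The Treg identity list had a median of 0.12, and its 2 higher members among 12, Ctla4 and Tnfrsf18, belong to the effector list too. NF-kB targets (15 measured, median 0.18) held no member past the threshold, while the immediate early list (15 measured, median 0.24) held Fos and the phosphatase gene Dusp1. Il1rl1, which encodes the IL-33 receptor ST2, had 51 UMIs in Klrg1-positive cells and 33 in Klrg1-zero cells with an interval of 0.979 to 2.47.

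**Figure D3:**
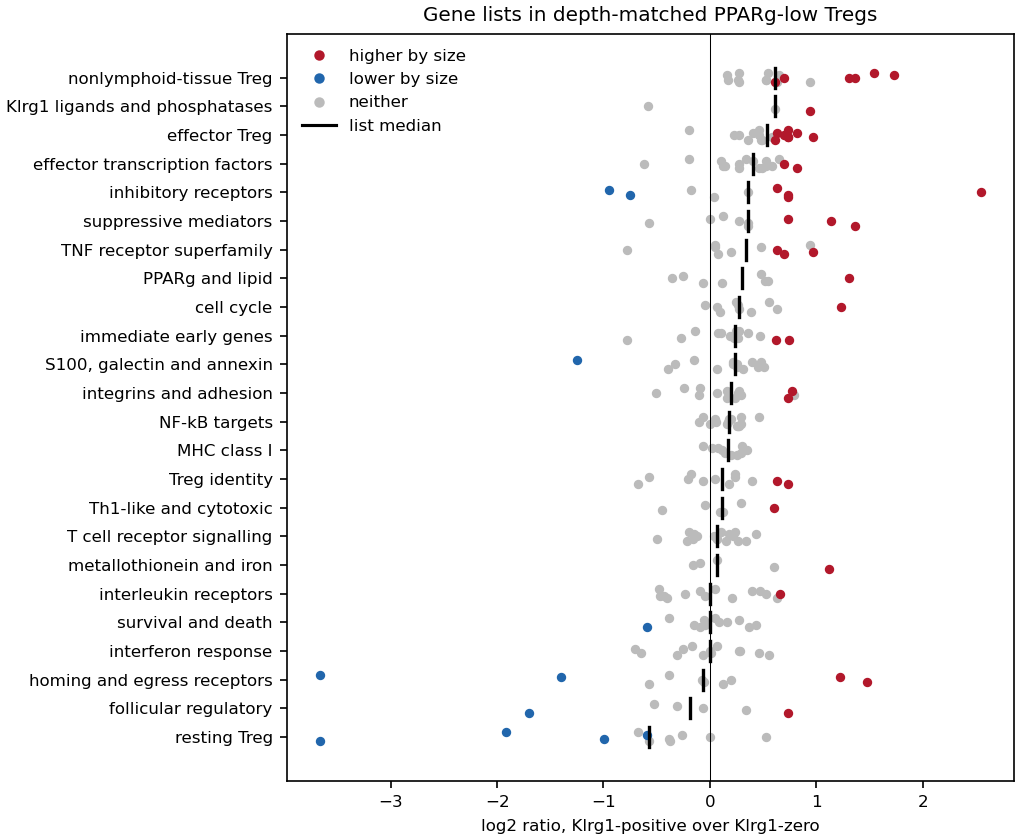
Log2 ratio of Klrg1-positive over Klrg1-zero PPARg-low Tregs at matched depth (x axis) for each measured member of 24 gene lists (y axis), coloured by the size rule, with the list median as a black bar. The nonlymphoid-tissue list has a median of 0.61 and the effector list of 0.54, and the resting list lies lowest at -0.58.

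The remaining leading genes were spread over several functions. Arl5a, an ARF-like small GTPase, had 142 UMIs in Klrg1-positive cells and 58 in Klrg1-zero cells (ratio 2.45, 1.79 to 3.39). Ildr1, an immunoglobulin-like membrane receptor, had 48 and 15 (ratio 3.20, 1.76 to 6.16), and Rnase4, a secreted ribonuclease whose exons overlap those of Ang and whose counts are therefore uncertain, had 33 and 9 (ratio 3.67, 1.72 to 8.72). None of these belongs to a list, and Arl5a was the best counted of them.

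On the lower side, Ccr7, the receptor that guides T cells into lymph nodes, had 3 UMIs in Klrg1-positive cells and 38 in Klrg1-zero cells (12.7-fold lower, 4.02 to 64.1). Ms4a4b had 413 and 840 (2.03-fold lower, 1.80 to 2.29), and Evl, an actin regulator of the Ena/VASP family, had 87 and 202 (2.32-fold lower, 1.80 to 3.02). Ms4a4b was the best counted gene on this side and Ccr7 the one with the largest ratio among those named. Ssbp2, a single-stranded DNA-binding protein, had 30 and 84 UMIs, the adaptor gene Pdlim1 had 16 and 57, the mitochondrial protein gene Chchd10 had 14 and 51, and the calcium-binding protein gene Tesc had 20 and 55. Tbc1d4, a Rab GTPase activator of glucose transporter traffic, had 32 and 73, and Anxa2, a membrane-binding annexin, had 32 and 76. Each of these was between 2.28-fold and 3.64-fold lower.

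Chemokine and granule genes gave no stable difference. Ccl5 had 354 UMIs in Klrg1-positive cells and 483 in Klrg1-zero cells, but the 5 richest cells held 56.5% and 60.7% of these UMIs, and single cells held up to 123 and 168. With Klrg1-positive cells limited to 2 or more Klrg1 UMIs its log2 ratio was 0.22, against -0.45 with all of them. In ribosome-poor cells Ccl5 had 193 and 90 UMIs (ratio 2.15, 1.67 to 2.79), and in ribosome-rich cells 178 and 387 (2.18-fold lower, 1.82 to 2.62). Nkg7, a granule protein, had 79 and 52 UMIs (ratio 1.52, 1.06 to 2.20), and it turned round with another random draw of cells, with a log2 ratio of -0.21. A UMI of Ccl5 was found in 92 and 96 of the 557 cells of each kind, so a few rich cells set these sums.

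Most leading genes held their direction within both ribosomal classes. They were chosen in both classes together, and the classes are parts of the same cells. Their direction within a class is therefore not an independent check. With 285 matched cells of each kind, ribosome-poor cells had 58 genes higher (1.84%) and 80 lower (2.54%) of 3149 measured, together 4.38%. With 265 of each kind, ribosome-rich cells had 166 higher (3.53%) and 95 lower (2.02%) of 4704, together 5.55%. Penk had 277 and 100 UMIs in ribosome-poor Klrg1-positive and Klrg1-zero cells (ratio 2.78, 2.20 to 3.53), and 365 and 102 in ribosome-rich ones (ratio 3.57, 2.86 to 4.49). Id3 was 3.24-fold lower (1.82 to 6.08) in ribosome-poor and 3.02-fold lower (2.30 to 4.02) in ribosome-rich Klrg1-positive cells. Penk was thus higher and Id3 lower by size in both classes, and whether the size differed between the classes was not tested.

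The effector receptors were less even. Tnfrsf4 had 1272 UMIs in Klrg1-positive and 1084 in Klrg1-zero ribosome-poor cells, under the threshold, but 1278 and 586 in ribosome-rich cells (ratio 2.17, 1.97 to 2.40). Of the effector list, 2 of 15 measured members were higher in ribosome-poor cells (Tnfrsf9 and Pdcd1) and 12 of 17 in ribosome-rich cells, with medians of 0.35 and 0.75 and no member lower in either. Levels behind this differed: at 750 UMIs, ribosome-poor Klrg1-positive cells had a mean of 14.1 effector list UMIs and ribosome-poor Klrg1-zero cells 11.05, while ribosome-rich ones had 6.46 and 3.92. The nonlymphoid-tissue list had 3 members higher and 1 lower (Nr4a1) of 13 measured in ribosome-poor cells, and 6 higher and none lower of 15 in ribosome-rich cells. The resting list had 1 lower of 7 (Klf2) in ribosome-poor cells, and 3 lower (Ccr7, Tcf7 and Klf2) and 1 higher (Il7r) of 11 in ribosome-rich cells; Bcl2 was past the rule in neither. The difference between the classes was not tested for these lists or for the effector list. Dgat2 was higher in ribosome-rich cells, with 28 and 7 UMIs, and had 9 and 14 in ribosome-poor cells.

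The cells were then read by their number of Klrg1 UMIs, with every cell thinned to 750 UMIs. The mean number of effector list UMIs was 6.87 in 486 Klrg1-zero cells, 8.99 in 242 cells with a single Klrg1 UMI, 11.3 in 113 cells with 2, 11.1 in 201 cells with 3 or more, and 17.7 in 143 Klrg1-positive cells of the Il10 gate. The nonlymphoid-tissue list gave means of 1.35, 1.95, 2.33, 2.43 and 3.26 in the same order. The resting list gave 1.37, 1.14, 1.04, 1.08 and 0.79. The step from no Klrg1 UMI to a single one was thus already seen in the means, those with 2 and with 3 or more were close together, and spread within each class was wide, with quartiles of 5 and 13 effector UMIs at 3 or more Klrg1 UMIs. Thinning left out 91 of the 647 Klrg1-positive and 129 of the 615 Klrg1-zero cells as too shallow. Of these, 89 and 124 were ribosome-poor. Among the cells left, 274 of 556 Klrg1-positive and 201 of 486 Klrg1-zero cells were ribosome-poor. Before thinning, 76.2% of the Klrg1-positive cells of the Il10 gate were ribosome-poor. The means by Klrg1 UMIs were not split by ribosomal class, and the part of this class in the steps was not tested.

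**Figure D4:**
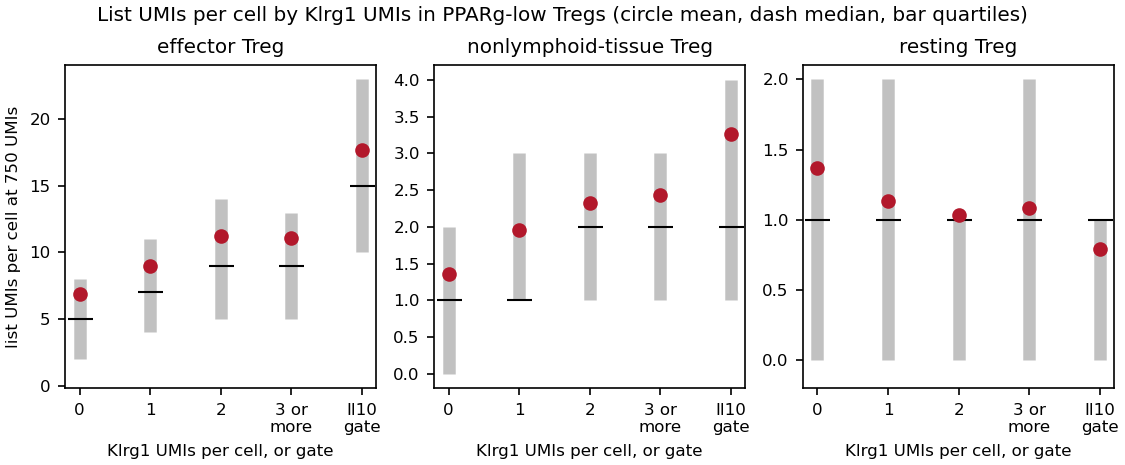
UMIs of 3 gene lists per cell after thinning to 750 UMIs (y axis) by Klrg1 UMIs of PPARg-low Tregs outside the gates, and in Klrg1-positive cells of the Il10 gate (x axis); circles are means, dashes medians and bars quartiles over cells. The mean effector count runs from 6.87 at 0 Klrg1 UMIs to 11.1 at 3 or more and 17.7 in the Il10 gate, and the mean resting count from 1.37 to 1.08 and 0.79.

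Shares of cells moved with these means. A Penk UMI was found in 17.4% of the 556 thinned Klrg1-positive cells (exact binomial interval 14.4 to 20.9%) and 7.61% of the Klrg1-zero cells (5.42 to 10.3%), and a Tnfrsf9 UMI in 48.7% and 32.1%. An Id3 UMI was found in 4.86% (3.22 to 6.99%) and 16.5% (13.3 to 20.1%), and a Klf2 UMI in 12.9% and 22.8%. Most Klrg1-positive cells therefore had no Penk UMI at this depth. No set of other cells was sorted in which free RNA could be read. Cd79a of B cells was seen in 2 and Lyz2 of myeloid cells in 1 of the 556 Klrg1-positive cells. Not all genes of these lists were this rare. Without thinning, Cd79b was seen in 21, Cst3 in 265 and Cd74 in 274 of the 647 Klrg1-positive cells. The Klrg1-zero cells with a UMI of these genes numbered 24, 170 and 198 of 615. The part of free RNA in the thinned shares was not tested. By Klrg1 UMIs, the Id3 share was 16.5% at 0, 7.44% at 1, 4.42% at 2 and 1.99% at 3 or more.

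Among the Klrg1-positive cells alone, 183 cells with 3 or more Klrg1 UMIs were matched in depth to 183 with a single one. Of 3232 measured genes, 81 (2.51%) were higher and 62 (1.92%) lower, together 4.42%. Ctsh had 32 UMIs in the cells with 3 or more and 8 in the cells with 1 (ratio 3.99, 1.80 to 10.0), and Il1rl1 had 27 and 13 (ratio 2.07, 1.03 to 4.37). S100a6, a small calcium-binding protein, had 450 and 239 UMIs (ratio 1.88, 1.6005 to 2.20), and Rora, a nuclear receptor of tissue lymphocytes, had 50 and 30. Id3 had 16 and 44 UMIs (2.76-fold lower, 1.53 to 5.24) and Tcf7 had 0 and 13. Il1rl1, Rora, Nfil3 and Ctsh were the 4 higher members among 14 measured nonlymphoid-tissue genes, Nr4a1 with 8 and 25 UMIs the 1 lower member, and Penk, with 271 and 201 UMIs, did not pass.

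The Klrg1-positive cells were next set against Klrg1-positive cells inside the Il10 gate of the same library. At matched depth (142 cells of each kind), 120 genes (3.99%) were higher and 223 (7.41%) lower outside the gate, of 3011 measured, together 11.4%. Tnfrsf9 had 355 UMIs outside and 869 inside the gate, and was 2.45-fold lower outside (2.16 to 2.78). Penk had 166 and 380 UMIs (2.29-fold lower, 1.91 to 2.77), and Nkg7 had 20 and 154 (7.71-fold lower, 4.82 to 12.98). Of 17 measured effector genes 6 were lower and none higher outside the gate, while Klf2, with 94 and 30 UMIs, was 3.13-fold higher (2.06 to 4.89) and Ms4a4b, with 152 and 48, was 3.16-fold higher (2.27 to 4.47). For these genes the Klrg1-positive cells outside the gate lay between the Klrg1-zero cells and the gate cells, apart from Nkg7, whose place against the Klrg1-zero cells was not stable.

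Some leading genes did not follow that order. Id2 had 103 UMIs outside and 99 inside the gate, Gata3 had 197 and 243, Epcam had 61 and 55, and Fgl2 had 34 and 44, all under the threshold. These genes were higher in Klrg1-positive than in Klrg1-zero cells but were not past the threshold between cells outside and inside the gate. Ribosome-poor cells made up 44.4% of the matched cells outside and 78.2% of those inside the gate, and the gate cells were not limited on the Ccr2 gate; the part of either in these values was not tested. Both comparisons use Klrg1-positive cells from outside the gate, so they are not independent.

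The PPARg-negative library gave cells that the rule had not used. Its 88 Klrg1-positive cells were matched to 88 Klrg1-zero cells of that library, and 96 genes (6.79%) were higher and 31 (2.19%) lower of 1413 measured, together 8.99%. Tnfrsf9 had 106 UMIs in Klrg1-positive and 40 in Klrg1-zero PPARg-negative cells (ratio 2.60, 1.79 to 3.84), and Tnfrsf4 had 324 and 102 (ratio 3.12, 2.49 to 3.93). Id3 had 19 and 43 UMIs (2.31-fold lower, 1.32 to 4.19), and Klf2 had 99 and 164 (1.69-fold lower, 1.31 to 2.19). Effector genes were higher in 10 of 10 measured, and resting genes were lower in 5 of 12 and higher in 1, Il7r. With sets this small, the other 8 of the 18 effector genes had too few UMIs, and a gene can pass the minimum through the set where it is high, so these counts describe the measured genes only. Of 9 named genes higher by size in the PPARg-low library and measured in both, 8 were higher here too and none was lower; of 9 that were lower, 3 were lower here and none was higher.

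Other genes were past the size rule in the PPARg-negative library and not in the PPARg-low library. S100a6 had 149 UMIs in Klrg1-positive and 27 in Klrg1-zero PPARg-negative cells (ratio 5.41, 3.57 to 8.49), and 843 and 593 in the PPARg-low library (ratio 1.42, 1.28 to 1.58). Ccl5 had 32 and 2 UMIs (ratio 15.7, 4.004 to 135) in PPARg-negative cells, where the PPARg-low library had 354 and 483. The list of S100, galectin and annexin genes had 9 measured members, of which 8 were higher in PPARg-negative Klrg1-positive cells, beside 6.79% of all genes. In the PPARg-low library none of 14 was higher, beside 3.16% of all genes, and Anxa2 was lower. The limit of small sets given above holds for this list too. The difference between the libraries was not tested. Ribosome-poor cells made up 55.7% of the Klrg1-positive and 37.5% of the Klrg1-zero PPARg-negative cells, and B cell markers summed to 15 UMIs (94.4 CPM) in the Klrg1-positive ones, with Cd79b at 14 UMIs against 1 in the matched Klrg1-zero cells. The myeloid and dendritic list stood at 881 CPM in the 88 Klrg1-positive and 229.6 CPM in all 2373 Klrg1-zero PPARg-negative cells, without depth matching. Cd74 was at 591 and 93.4 CPM in the same order. Lyz2 was at 31.5 and 0.555 CPM, but this rests on 5 UMIs in 2 cells and 3 UMIs in 2 cells. The part of these differences in the values above was not tested.

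**Figure D5:**
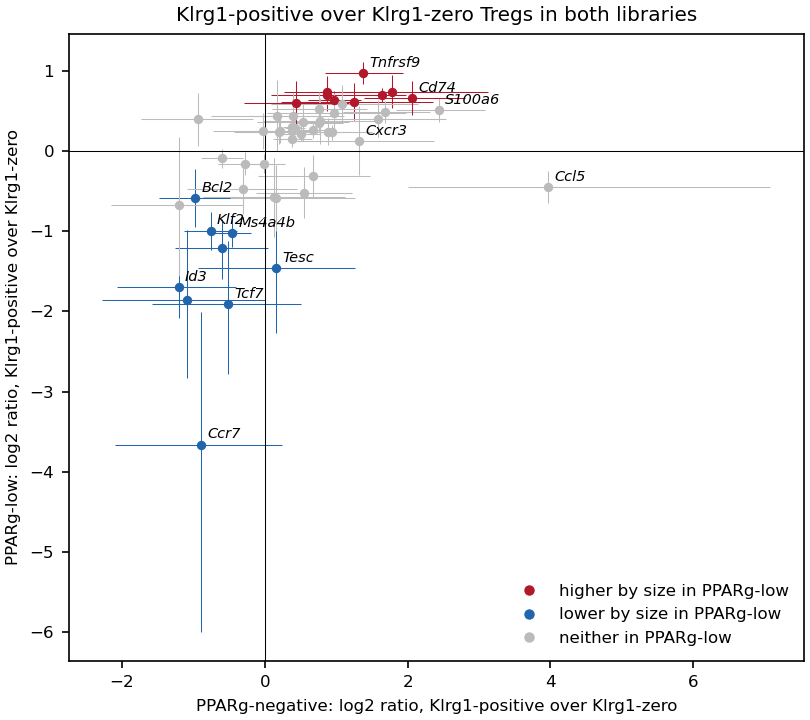
Log2 ratio of Klrg1-positive over Klrg1-zero Tregs in the PPARg-low library (y axis) against the PPARg-negative library (x axis) for the 52 named genes measured in both, with 95% counting intervals. Tnfrsf9 is higher and Id3 and Klf2 are lower in both, and Ccl5 lies far to the right, with 32 and 2 UMIs in the PPARg-negative library.

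Klrg1-positive cells of both libraries were last set side by side, 88 of each at matched depth, with 1553.5 and 1640 UMIs in the median PPARg-low and PPARg-negative cell. Of 1515 measured genes, 77 (5.08%) were higher and 49 (3.23%) lower in PPARg-low cells, together 8.32%. Penk had 99 UMIs in the PPARg-low cells and 24 in the PPARg-negative ones (ratio 4.17, 2.65 to 6.81), Tnfrsf9 had 219 and 106 (ratio 2.09, 1.65 to 2.66) and Pdcd1 had 88 and 28 (ratio 3.18, 2.06 to 5.05). Batf, an AP-1 family factor of effector Tregs, had 89 and 28 (ratio 3.21, 2.08 to 5.11), and Epcam had 39 and 12 (ratio 3.29, 1.69 to 6.89).

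Resting genes ran the other way. Klf2 had 34 UMIs in the PPARg-low cells and 99 in the PPARg-negative ones (2.88-fold lower, 1.93 to 4.39), and Bcl2, an anti-apoptotic gene, had 19 and 54 (2.81-fold lower, 1.64 to 5.02). Effector genes were higher in 8 of 13 measured and lower in none, against 5.08% and 3.23% of all genes, with a median of 0.70. The list holds 18 genes. With sets this small a gene can pass the minimum through the set where it is high, so the count describes the measured genes only. The rule gave every cell here 1 or more Klrg1 UMIs, so the presence of Klrg1 is no check that the sets are alike. Its level was not matched, with 214 UMIs in the PPARg-low set and 151 in the PPARg-negative set. Cells with a single Klrg1 UMI were 47.8% of all 647 PPARg-low Klrg1-positive cells, before matching, and 63.6% of the PPARg-negative ones. The part of Klrg1 level in the values above was not tested. Shares of ribosome-poor cells were alike, 56.8% and 55.7%. Library and PPARg group cannot be told apart here, since each group is 1 library.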

How the data were processed

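The deposited matrices hold raw UMI counts, not normalized by the authors, for 28692 genes. Cell Ranger 2.1.0 and mm10 are named in the submitters' processing notes, and neither the annotation nor the cell calling is given in the sources used here. GENCODE M21 gave gene positions on mm10 and held 28339 of the identifiers. A limit of 10% mitochondrial UMIs removed 373 PPARg-low and 269 PPARg-negative barcodes and left 2901710 and 5897260 UMIs. Scrublet (scanpy 1.11.5) marked 11 kept PPARg-low cells (0.679%), 9 of them Klrg1-positive cells of the rule; they were kept.

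Equal numbers of both kinds of cells were drawn per bin of UMIs without Klrg1 (log2 width 0.25), UMIs were summed, and ratios of UMIs per 1000000 were given with exact conditional binomial 95% intervals. Genes with 30 or more UMIs over both sets counted as measured. Cells are not replicates, so no p-value was computed. The members, the 24 gene lists and the alternatives were chosen with earlier results of these data known. Genes were named by rule: Klrg1, Pparg and Foxp3, the 12 highest and 12 lowest by the interval bound nearest to 1, and at most 4 genes from a list (6 from the effector, nonlymphoid-tissue, resting and Treg identity lists); Icos, Il1rl1, Rora, Nfil3, Nr4a1, Cd200r1 and Pecam1 are list members chosen after their values were seen. Ratios were tested on simulated counts. Python 3.11.15 was used with matplotlib 3.10.9, pandas 2.3.3, scipy 1.17.1 and numpy 2.4.6.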

Additional observations from a re-analysis of the deposited data

How the results depend on the processing

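The share of kept PPARg-low cells under the rule was 20.9% with 2 or more Klrg1 UMIs and 26.3% with both gates at 0 UMIs. The count of genes higher by size (197) was 100 with cells thinned to 750 UMIs, 58 in ribosome-poor cells, 78 with 100 or more UMIs per gene and 72 at a ratio of 2 or more. The count lower (103) was 219 with cells weighed equally, 172 with 1 or more UMIs per gene, 36 with 100 or more and 43 at a ratio of 2 or more. These counts are not all of the same number of genes. The 197 were 3.16% of 6238 measured genes, and the 58 in ribosome-poor cells were 1.84% of 3149. Fewer genes are measured at 100 UMIs and more at 1 UMI. A ratio of 2 is a stricter rule on the same genes, thinning leaves fewer UMIs per cell, and the ribosome-poor set holds fewer cells. Otherwise the cause was not tested. The effector, nonlymphoid-tissue and resting medians kept their sign in every alternative run. The sign changed in at least 1 alternative for the NF-kB target (-0.12 in ribosome-poor cells, against 0.18), Th1-like, cell cycle, T cell receptor, homing, interferon, interleukin receptor, survival and metallothionein lists, the last with -0.22 when thinned and -0.32 in ribosome-poor cells, against 0.07. Of 47 named genes higher or lower by size, 45 to 47 kept their direction in each alternative. These genes were called in the main comparison, and the alternatives use cells of the same library, so this is not an independent check. Nkg7 turned to -0.31 (log2) with a 5% mitochondrial limit, -0.21 with another random draw and -0.53 in ribosome-rich cells, and Dgat2 to -0.63 in ribosome-poor cells. Intervals with cells weighed equally are approximate.

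No paired analysis was possible because each group is 1 library, and leaving out a replicate was not possible either. Depth limits the rare genes: Pparg, Foxp3 and Ccr7 rest on few UMIs, and intervals cover counting error only, not variation between mice or sorts.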

Other observations

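Other gene groups outside the main contrasts were measured in the PPARg-low library at matched depth. MHC class I genes had 23430 UMIs over 10 genes in Klrg1-positive cells and 19447 in Klrg1-zero cells, with a list median of 0.17 on the log2 scale, and none passed the size rule. B2m, the shared light chain, had 8218 and 6689 UMIs. In the cell cycle list, Stmn1 was the 1 of 10 measured members past the rule, with 47 and 20 UMIs, and the 5 richest Klrg1-positive cells held 76.6% of its UMIs. Mt1, a metal-binding protein, had 39 and 18 UMIs, while the ferritin heavy chain gene Fth1 had 1156 and 1293. The integrin, Th1-like, survival and follicular lists had medians of 0.20 for 14 measured integrin and adhesion genes, 0.11 for 6 Th1-like and cytotoxic genes, 0.00 for 12 survival and death genes and -0.19 for 6 follicular regulatory genes.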
